A study of Mus musculus with 24 samples.

Results

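Slow/slow and wild-type (WT) cells were compared at the PSA-NCAM+ stage of neural differentiation, using the 6 libraries that the sample labels assign to this stage among the 24 libraries of the study (3 replicates per genotype). WT cells were wt/wt embryonic stem cells (ESCs), and slow/slow cells carried the genotype Polr2a[R749H/R749H], a substitution of arginine by histidine (R749H) on both alleles of Polr2a, which encodes the catalytic subunit of RNA polymerase II. According to the study, the slow/slow line was made from the WT ESC line by gene targeting of both alleles, and the polymerase it makes elongates more slowly. Cells of both genotypes had been kept in 2i medium, moved to N2B27 medium as an adherent monolayer, detached on day 10 with accutase and enriched with PSA-NCAM beads, while the plating density was 10000 cells per cm2 for WT and 30000 cells per cm2 for slow/slow cells. Genotype, plating density and the derivation of the lines therefore cannot be told apart in any comparison below. The other 18 libraries (ESCs, neural progenitor cells or NPCs on day 7, and neurons replated on day 7 and grown for 14 further days) serve only as reference points.

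RNA polymerase II transcribes all protein-coding genes, and its speed sets the time over which splice sites and other signals emerge in the nascent RNA. PSA-NCAM is the neural cell adhesion molecule (NCAM, encoded by Ncam1) carrying long chains of polysialic acid, which the sialyltransferases St8sia2 and St8sia4 add to it. The modification weakens adhesion between cells and is carried in the embryo by migrating neuroblasts and young neurons, but not only by them. On the way from ESCs to neurons, the pluripotency network is shut down, progenitors switch on Sox and Pax factors, Notch signalling holds part of the progenitors back, and proneural basic helix-loop-helix factors drive the rest out of the cycle and into neuronal differentiation.

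The transcripts of the PSA-NCAM machinery were present in all 6 libraries. Ncam1 was at CPM values (counts of a gene relative to the scaled library total) of 27.0, 20 and 21.9 in WT replicates 1 to 3 and at 20.9, 31.6 and 29.1 CPM in the slow/slow replicates, and it did not pass the test (log2 fold change 0.22 ± 0.20 SE, edgeR FDR 0.444). St8sia2 (GRCm38 chr7:73939119-74013690, minus strand) was at 3.23, 4.47 and 4.28 CPM in WT and at 12.8, 26.5 and 28.7 CPM in slow/slow cells, against a mean of 310 CPM in WT neurons. The WT libraries held little RNA of neuronal markers. Dcx, a microtubule-associated protein of migrating neuroblasts, was at 1.6, 2.28 and 2.00 CPM against a mean of 1120 CPM in WT neurons, and Tubb3, a neuronal tubulin, at 14.4, 22.3 and 23.2 CPM against a mean of 928 CPM. The same WT libraries held the keratin Krt8 at 2830, 1120 and 1240 CPM and the pluripotency factor Esrrb at 339, 435 and 348 CPM, so that the label PSA-NCAM+ cannot be read as a population of neuroblasts. In such bulk samples, fewer cells of a type and less RNA per cell cannot be told apart.

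The library labelled slow/slow replicate 1 stood apart from the other slow/slow libraries in transcripts of the Y chromosome. Ddx3y, a Y-linked RNA helicase, was at 30.8 CPM in it, against 0.171 and 0.120 CPM in slow/slow replicates 2 and 3, 0.194 to 0.588 CPM in the other 9 slow/slow libraries of the study and 19.6 to 66.7 CPM in all 12 WT libraries. Eif2s3y (19.4 CPM against 0.320 and 0.229) and Uty (12.4 CPM against 0.0960 and 0.0437) showed the same pattern, and Eif2s3y was called lower in slow/slow cells with the replicate block (-5.47) but not without it. By chromosome, the library was nevertheless like the other slow/slow libraries. The median log2 difference from the WT mean over the genes of chromosome 8 was 0.45 in slow/slow replicate 1 and 0.54 and 0.61 in replicates 2 and 3, and over the genes of chromosome 15 it was -0.59, -0.49 and -0.43. The levels of Ace (0.694, 0.661 and 0.732 CPM in the slow/slow replicates, 4.97 to 5.74 CPM in WT) and of Atp6ap2 (84.8, 106 and 89.4 CPM, against 204 to 230 CPM) also followed the label. Mest, an imprinted gene, did not: it was at 268 CPM in slow/slow replicate 1, against 6.48 and 7.84 CPM in replicates 2 and 3, 1.02 to 4.36 CPM in the other 9 slow/slow libraries and 15.5 to 313 CPM in the WT libraries. Among 102 genes that differed at least 2-fold between the genotypes in the same direction at the other 3 stages and in slow/slow replicates 2 and 3, the library stood at a median of 68.5% of the way from the WT to the slow/slow level (quartiles 40.0% and 92.5%). Among 8 alternative exons chosen by the same kind of rule, it was outside the range of the WT replicates in 5, at a median of 42.0% of the way. What this library contains was not tested. Counts are given with it and without it where they moved, and all 101 genes named in the text that passed the test over the 6 libraries also passed without it. Polr2a counts do not separate the alleles and so do not check the genotype: Polr2a (GRCm38 chr11:69733997-69758637, minus strand) was at 249, 317 and 340 CPM in WT and 195, 394 and 349 CPM in slow/slow cells (log2 fold change 0.024 ± 0.27 SE, edgeR FDR 0.957).

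**Figure D1:**
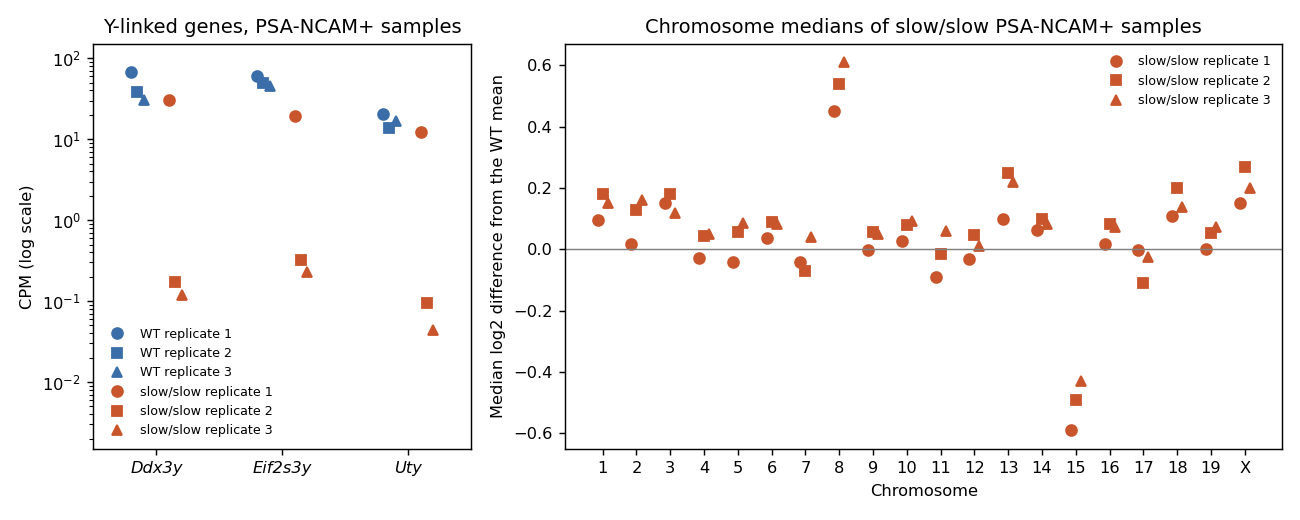
Left, CPM (log scale) of Ddx3y, Eif2s3y and Uty in the 6 PSA-NCAM+ libraries, with 1 point per library. Right, median log2 difference of each slow/slow PSA-NCAM+ library from the WT mean, by chromosome. Slow/slow replicate 1 lies at 12.4 to 30.8 CPM for the Y-linked genes, near the WT libraries, while its medians on chromosome 8 (0.45) and chromosome 15 (-0.59) lie with those of replicates 2 and 3.

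In slow/slow PSA-NCAM+ cells, 13 of 17 neural progenitor genes and 17 of 26 proneural and neurogenic factors were higher than in WT cells. Of 28 Notch pathway genes 10 were higher and 4 lower, and of 24 pluripotency genes 13 were lower and 3 higher. These counts varied with the library left out, as given with each list. Of 15660 genes tested over the 6 libraries, 3641 (23.3%) differed between the genotypes (edgeR quasi-likelihood test, Benjamini-Hochberg FDR under 0.05), 1768 of them higher (11.3%) and 1873 lower (12%) in slow/slow cells. With the replicate number as a block, 6473 genes (41.3%) differed, among them 3621 of the 3641. Without the library labelled slow/slow replicate 1, 7352 of 16088 genes (45.7%) differed, 3521 higher (21.9%) and 3831 lower (23.8%), among them 3620 of the 3641. Leaving out WT replicate 1, 2 or 3 gave 2382, 1178 and 1270 genes, and leaving out slow/slow replicate 2 or 3 gave 1013 and 1347. The spread between replicates was wide at this stage, with a biological coefficient of variation of 0.317 over the 6 libraries and of 0.218 without slow/slow replicate 1, against 0.0592 in NPCs and 0.0537 in neurons. In 6875 of the 15660 genes (43.9%), the 3 slow/slow values did not overlap the 3 WT values. By chromosome, 39.8% of the 684 genes tested on chromosome 8 were higher and 35.8% of the 509 on chromosome 15 were lower. With chromosomes 8, 15 and Y left out, 2952 of 14219 genes (20.8%) differed, 1403 higher and 1549 lower. Of the genes named elsewhere, Hoxc13, Wnt1, Ndrg1, Psca and Krt8 lie on chromosome 15 and Tubb3, Cdh5 and Atp2c2 on chromosome 8.

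The genes with the largest change were taken among those that passed with and without the block, did not overlap between the genotypes and had a mean of at least 5 CPM in the higher genotype. Among the 15 that rose most were Hes3 and Hes5, basic helix-loop-helix repressors through which Notch keeps progenitors undifferentiated. Hes5 was at 0.335, 0.409 and 0.424 CPM in WT and at 7.19, 10.5 and 11 CPM in slow/slow cells (log2 fold change 4.60 ± 0.29 SE, edgeR FDR 0.00240). Hes3 was at 0.162, 0.0195 and 0.0814 CPM in WT and at 1.63, 18.4 and 20.3 CPM in slow/slow cells, so that slow/slow replicate 1 lay between the WT libraries and the other slow/slow libraries (log2 fold change 7.11 ± 1.16 SE, FDR 0.00988). Olig3, which marks dorsal progenitor domains, was at 0.393, 1.01 and 0.814 CPM in WT and at 9.70, 48.3 and 51.3 CPM in slow/slow cells. Crabp1, a cytoplasmic retinoic acid-binding protein, was at 17.7, 19.7 and 21 CPM in WT and at 386, 902 and 1080 CPM in slow/slow cells (log2 fold change 5.31 ± 0.41 SE, FDR 0.00270). In each of these genes slow/slow replicate 1 was the lowest of the 3 slow/slow libraries.

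The same group held Six6, an eye field factor whose exons overlap 4930447C04Rik, counted 3, 0 and 2 times in the WT libraries and present at 4.35, 7.42 and 9.29 CPM in the slow/slow libraries. It also held the growth factor Fgf15, the glycine receptor subunit Glra1, the ephrin receptor Epha3, the transcription factors Rfx4, Tcfap2b (the symbol in the files for Tfap2b), Foxb1 and Nhlh1, the ligand Wnt1 and the uncharacterised A930038C07Rik, with log2 fold changes of 4.42 (A930038C07Rik) to 6.55 (Fgf15). Wnt1, a signal of the dorsal midline and the midbrain-hindbrain border, did not follow the order of the others. It was at 0.254, 0.272 and 0.163 CPM in WT and at 18.3, 2.62 and 2.99 CPM in slow/slow cells, with replicate 1 the highest. In fits that each left out 1 of the 6 libraries, 13 of these 15 genes passed every time, and Epha3 and Wnt1 passed in 4 of 6.

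The core promoter of Hes5 is shown because Hes5 is a direct Notch target in textbooks and the gene with one of the largest and least variable rises. The window runs from 250 bases before to 50 bases after the transcription start in RefSeq (GRCm38.p6 chr4:154960673-154960972, plus strand). Capitals mark the core motif of RBPJ, the DNA-binding partner of Notch (GTGGGAA, searched on both strands).
Hes5 promoter: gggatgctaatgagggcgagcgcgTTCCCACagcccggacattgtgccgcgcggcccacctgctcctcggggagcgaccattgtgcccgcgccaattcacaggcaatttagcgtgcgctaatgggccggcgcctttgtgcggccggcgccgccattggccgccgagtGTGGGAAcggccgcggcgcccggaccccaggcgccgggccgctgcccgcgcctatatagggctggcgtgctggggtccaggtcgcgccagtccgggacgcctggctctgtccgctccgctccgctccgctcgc
The motif was found 2 times, while 6.38% of all 32851 promoter windows of this length held it at least once. A match is a description of letters and not a binding site.

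Among the 15 genes with the largest fall, Stra8, a gene that germ cells need to enter meiosis and that retinoic acid induces, was at 26.7, 128 and 104 CPM in WT and at 3.47, 5.08 and 6.94 CPM in slow/slow cells (log2 fold change -4.09 ± 0.63 SE, edgeR FDR 0.00866). Smc1b, a meiotic cohesin subunit, was at 24.1, 30 and 29.8 CPM in WT and at 2.78, 0.992 and 0.775 CPM in slow/slow cells, and Aurkc, a meiotic kinase, fell by 4.56 on the log2 scale. Rhox9, a homeobox gene of the X chromosome expressed in placenta and gonads, was at 110, 36.1 and 49.4 CPM in WT and at 6.15, 2.16 and 2.51 CPM in slow/slow cells (log2 fold change -4.19 ± 0.61 SE, FDR 0.00795). Ly6a, which encodes the surface protein Sca-1, was at 8.65, 18.8 and 18.8 CPM in WT and at 0.531, 0.459 and 0.229 CPM in slow/slow cells. The remaining genes were Ldoc1, Gm52, Serpinb9e, Serpinb9c, Il2rb, Fbp2, Gm949, Dmkn, Krt80 and 4932442L08Rik, with log2 fold changes of -4.31 (4932442L08Rik) to -5.13 (Ldoc1). In 7 of them (Ldoc1, Gm52, Serpinb9e, Serpinb9c, Il2rb, Krt80 and 4932442L08Rik) WT replicate 1 was more than 3 times as high as WT replicates 2 and 3. These 7 lost the call in at least 2 of the 6 fits without 1 library, whereas the other 8 of the 15 kept it. Ly6a, Il2rb, Krt80 and Smc1b lie on chromosome 15. Serpinb9c and Serpinb9e belong to a cluster of near-identical copies, so the split of their counts is uncertain.

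**Figure D2:**
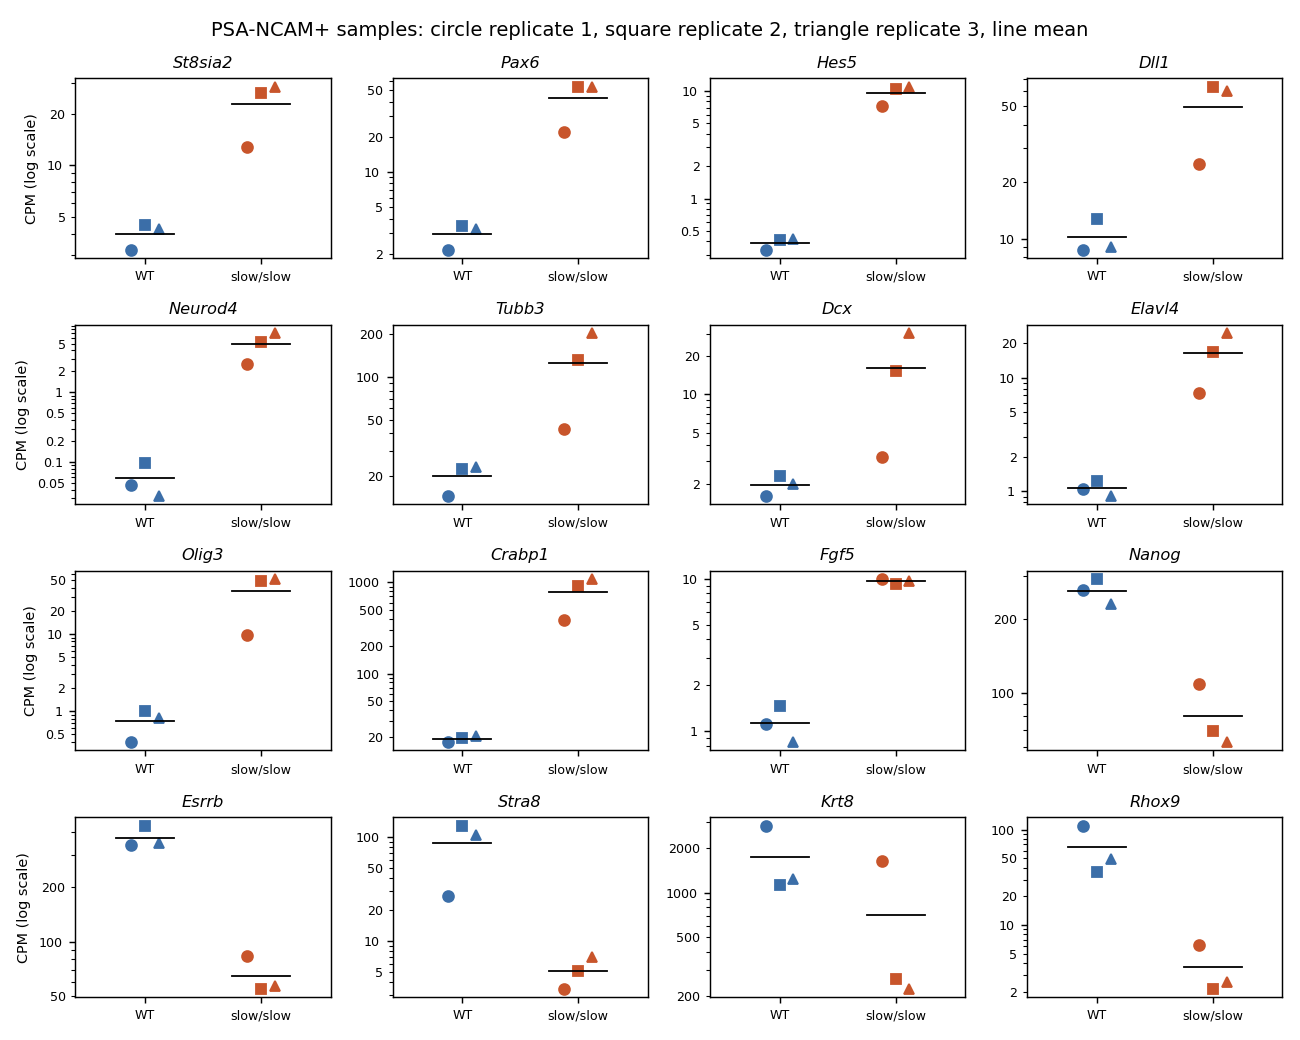
CPM (log scale) of 16 genes in the 6 PSA-NCAM+ libraries, with circles for replicate 1, squares for replicate 2, triangles for replicate 3 and a line at the mean of each genotype. The libraries of the genotypes do not overlap in most panels, and in Dcx, Tubb3, Hes5 and Olig3 slow/slow replicate 1 (3.23, 42.8, 7.19 and 9.70 CPM) is the slow/slow library nearest to WT. In Krt8 it lies at 1630 CPM, among the WT libraries.

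Of 11 genes of the PSA-NCAM machinery 2 rose and 1 fell, against 11.3% and 12% of all genes tested. St8sia2, the main polysialyltransferase of the embryo, rose (log2 fold change 2.48 ± 0.34 SE, edgeR FDR 0.00697), and St8sia3, a related sialyltransferase, was at 0.683, 1.32 and 1.50 CPM in WT and at 5.88, 18.8 and 19.8 CPM in slow/slow cells (FDR 0.00873). St8sia1, which makes the ganglioside GD3, fell (log2 fold change -1 ± 0.21 SE, FDR 0.0189, passing in 3 of the 6 fits without 1 library). St8sia4 did not pass (log2 fold change 0.78 ± 0.44 SE, FDR 0.240), nor did the enzymes that supply sialic acid, Gne, Nans, Cmas and Slc35a1, with values within 0.27 of 0. The median log2 fold change of the list was 0.22, against -0.0081 over all genes tested.

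Neural progenitor genes rose in 13 of 17 members tested (5 to 16 in the fits without 1 library), with a median log2 fold change of 1.80. Pax6, a homeodomain factor of forebrain and spinal cord progenitors (GRCm38 chr2:105668900-105697364, plus strand), was at 2.17, 3.48 and 3.27 CPM in WT and at 21.9, 54.0 and 53.5 CPM in slow/slow cells (log2 fold change 3.83 ± 0.41 SE, edgeR FDR 0.00405). Nes, the intermediate filament nestin, was at 64.6, 89.9 and 95.7 CPM in WT and at 230, 259 and 267 CPM in slow/slow cells (log2 fold change 1.57 ± 0.18 SE). The RNA-binding protein Msi1 (1.93 ± 0.18) and the SoxB1 factor Sox3 (3.79 ± 0.67) rose as well, while Sox2, which ESCs share with progenitors, rose by 0.65 ± 0.15 on the log2 scale (FDR 0.0261). Fabp7, the fatty acid-binding protein of radial glia, rose by 4.06 ± 0.83 and was at 3.63, 25.7 and 43.8 CPM in the slow/slow libraries, with replicate 1 far below the others. Of these genes, Fabp7 passed in 1, Sox2 in 2 and Sox3 in 5 of the 6 fits without 1 library. Sox1 had too few counts to be tested. In this list and in those below that are given with a range, the highest number of higher genes came from the fit without slow/slow replicate 1.

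In the Notch pathway, 10 of 28 members rose and 4 fell (6 to 12 and 0 to 4 in the fits without 1 library). The ligand Dll1, by which committed cells signal to their neighbours, was at 8.75, 12.7 and 9.02 CPM in WT and at 24.9, 63.5 and 60.2 CPM in slow/slow cells (log2 fold change 2.26 ± 0.37 SE, edgeR FDR 0.0101). The ligands Dll3 (2.04 ± 0.41) and Jag1 (1.26 ± 0.32) and Lfng, a glycosyltransferase that tunes receptor choice (2.32 ± 0.23), rose. The receptor Notch1 was nearly level, at 91.0, 77.1 and 88.7 CPM in WT and 95.0, 91.2 and 92.9 CPM in slow/slow cells (log2 fold change 0.10 ± 0.11 SE, FDR 0.545). Dtx1, a ubiquitin ligase of the pathway, fell (log2 fold change -1.42 ± 0.25 SE, FDR 0.0121). The others that rose were Hes3, Hes5, Maml1, Maml2, Mib1 and Dtx4, and the others that fell were Jag2, Notch4 and Rbpj. Dll3 and Mib1 passed in 1 of the 6 fits without 1 library, Jag1, Maml2, Notch4 and Rbpj in 2, Jag2 in 3 and Dtx1 in 5.

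Proneural and neurogenic factors rose in 17 of 26 members tested (7 to 20 in the fits without 1 library), with a median log2 fold change of 2.13. Their summed level overlapped between the genotypes, at 902, 607 and 621 CPM in WT and 1000, 691 and 843 CPM in slow/slow cells, against a mean of 1710 CPM in WT neurons. Neurod4 (GRCm38 chr10:130268152-130280240, minus strand), which promotes exit from the cycle, was at 0.0463, 0.0973 and 0.0326 CPM in WT and at 2.53, 5.30 and 7.11 CPM in slow/slow cells (log2 fold change 6.40 ± 0.60 SE, edgeR FDR 0.00314). Nhlh1, of the same family, was at 0.254, 0.292 and 0.358 CPM in WT and at 2.41, 6.86 and 13.2 CPM in slow/slow cells. Insm1 (3.09 ± 0.40) and Ebf2 (3.38 ± 0.42) rose on the log2 scale. In 22 of the 26 genes slow/slow replicate 1 was the lowest slow/slow library, and WT replicate 1 was the lowest WT library in 13. Over all 15660 genes tested, replicate 1 was the lowest in 7378 in slow/slow and in 6748 in WT cells. The WT count of the list lay near that share.

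Cytoskeletal and growth genes of neurons rose in 12 of 23 members (4 to 17 in the fits without 1 library) and 1, Mapt, fell (median log2 fold change 1.30). Tubb3 was at 14.4, 22.3 and 23.2 CPM in WT and at 42.8, 131 and 205 CPM in slow/slow cells (log2 fold change 2.63 ± 0.54 SE, edgeR FDR 0.0186), on a chromosome, 8, whose genes had a median log2 fold change of 0.54. Dcx was at 3.23, 15.2 and 30.4 CPM in slow/slow cells (log2 fold change 3.03 ± 0.74 SE, FDR 0.0297). Stmn2, a regulator of growth cone microtubules, was at 46.7, 61.2 and 47.5 CPM in WT and at 152, 269 and 266 CPM in slow/slow cells (FDR 0.00515), while the neuronal dendrite marker Map2 (Mtap2 in the files) did not pass (0.76 ± 0.39, FDR 0.198, and 0.0166 with the replicate block). Tubb3, Dcx and Mapt passed only once among the 6 fits without 1 library, the fit without slow/slow replicate 1. Slow/slow replicate 1 was the lowest slow/slow library in 18 of the 23 genes and WT replicate 1 the lowest WT library in 19.

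Neuronal RNA-binding proteins rose in 9 of 20 members tested (3 to 14 in the fits without 1 library), with a median log2 fold change of 1.07. Elavl4, a stabiliser of neuronal mRNAs, was at 1.04, 1.24 and 0.912 CPM in WT and at 7.39, 16.9 and 24.7 CPM in slow/slow cells (log2 fold change 3.91 ± 0.47 SE, edgeR FDR 0.00529). Ptbp2, the splicing repressor of young neurons, rose (1.48 ± 0.12, FDR 0.00288). Its relative Ptbp1, which is high in dividing cells and whose exons overlap Plppr3, did not pass (0.33 ± 0.20, FDR 0.263), and nor did Srrm4, the activator of neuronal microexons (1.36 ± 0.43, FDR 0.0630, and 0.0175 without slow/slow replicate 1).

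Synaptic genes rose in 9 of 33 members and fell in 2 (median log2 fold change 0.60; 6 to 14 and 1 to 2 in the fits without 1 library). Cplx2, a regulator of vesicle fusion, was at 5.18, 6.07 and 7.15 CPM in WT and at 31.6, 63.2 and 65.7 CPM in slow/slow cells (log2 fold change 3.10 ± 0.31 SE, edgeR FDR 0.00364). Snap25, of the fusion complex, rose by 3.00 ± 0.55 but stayed at 1.08 to 3.97 CPM (passing in 3 of the 6 fits without 1 library), and the vesicle protein Syp did not pass (0.84 ± 0.43, FDR 0.204). Among axon guidance genes 14 of 33 rose (6 to 21 in the fits without 1 library), with a median log2 fold change of 0.85. Epha7, an ephrin receptor, was at 7.26, 13.3 and 14.5 CPM in WT and at 111, 153 and 130 CPM in slow/slow cells (3.47 ± 0.30, FDR 0.00294), and the netrin receptor Dcc rose by 2.76 ± 0.35.

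Positional genes were counted by region, and the differences between the regional lists were not tested. Of 22 midbrain and hindbrain genes 14 rose (7 to 19 in the fits without 1 library, median log2 fold change 2.10), among them Hoxa2, at 0.613, 1.13 and 1.29 CPM in WT and at 8.19, 27.2 and 25.8 CPM in slow/slow cells (4.31 ± 0.56, edgeR FDR 0.00625), and Egr2, a segmentation factor of the hindbrain, at 24.5, 18.2 and 17.8 CPM in WT and 42.6, 69.7 and 68.7 CPM in slow/slow cells. Of 19 forebrain genes 4 rose and 3 fell (3 to 4 and 0 to 6 in the fits without 1 library), with a median of -0.17. Without slow/slow replicate 1, 6 fell and the median was -0.85. With replicate 1 of both genotypes left out, 8 of 18 fell (median -0.48), and with the replicate block 3 fell (median -0.40). Sp8, a zinc finger factor of the anterior neural ridge, was at 3.13, 2.41 and 2.25 CPM in WT and at 32.4, 42.3 and 49.0 CPM in slow/slow cells (3.97 ± 0.23, FDR 0.00240). Of 29 dorsoventral genes 11 rose and 1 fell (7 to 15 and 0 to 2 in the fits without 1 library). Those that rose included the dorsal factors Pax3 (2.71 ± 0.48), Pax7 (2.59 ± 0.51) and Msx3 (4.32 ± 0.50) and Dbx1 of intermediate progenitors (5.48 ± 0.33), while the ventral signal Shh stayed at or below 0.950 CPM in every library and did not pass (FDR 0.104). Among 35 Hox genes 4 rose and 10 fell (1 to 12 and 3 to 9 in the fits without 1 library). The 4 were Hoxa2, Hoxb1, Hoxb2 and Hoxb3, all of the anterior paralogue groups that hindbrain cells use, and the posterior genes Hoxa13 (-2.72 ± 0.53) and Hoxc13 (-2.17 ± 0.31, at 8.02, 7.64 and 8.01 CPM in WT and 2.47, 1.33 and 1.53 CPM in slow/slow cells) were among those that fell. Hoxc13 lies on chromosome 15, whose genes had a median log2 fold change of -0.53. Hoxa13, Hoxb1 and Hoxb2 passed in 2 of the 6 fits without 1 library, and Hoxb3 and Pax7 in 3.

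Retinoic acid genes rose in 11 of 25 members and fell in 4 (4 to 13 and 1 to 6 in the fits without 1 library). Binding proteins and degrading enzymes were among the genes that rose: Crabp2 was at 21.3, 44.9 and 51.0 CPM in WT and at 151, 180 and 177 CPM in slow/slow cells (2.09 ± 0.33, edgeR FDR 0.00913), and Cyp26b1 rose by 1.94 ± 0.41 (passing in 2 of the 6 fits without 1 library). Aldh1a2, the main retinoic acid synthesising enzyme of the embryo, fell (-1.49 ± 0.40, FDR 0.0394, passing in 1 of the 6 fits without 1 library), as did Stra8.

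Pluripotency genes fell in 13 of 24 members and rose in 3 (8 to 14 and 2 to 3 in the fits without 1 library), with a median log2 fold change of -1.17. Esrrb (GRCm38 chr12:86361117-86521628, plus strand) was at 339, 435 and 348 CPM in WT and at 83.2, 55.0 and 56.6 CPM in slow/slow cells (-2.54 ± 0.23, edgeR FDR 0.00304). Nanog was at 261, 290 and 229 CPM in WT and at 108, 69.5 and 62.6 CPM in slow/slow cells (-1.71 ± 0.25, FDR 0.00759). Pou5f1, the core factor Oct4, was at 337, 504 and 396 CPM in WT and at 155, 358 and 385 CPM in slow/slow cells and did not pass (-0.49 ± 0.34, FDR 0.332). Those that rose were the Nodal antagonists Lefty1 (2.56 ± 0.46) and Lefty2 (2.19 ± 0.15) and the growth factor Gdf3 (1.22 ± 0.29), all of which belong to Nodal signalling. Of 14 genes of the formative state and the epiblast, the step after naive pluripotency, 7 rose and 1 fell (4 to 10 and 0 to 1 in the fits without 1 library). Fgf5, the classical epiblast marker, was at 1.11, 1.46 and 0.847 CPM in WT and at 9.90, 9.26 and 9.59 CPM in slow/slow cells (3.05 ± 0.28, FDR 0.00304), and Foxd3 fell (-1.58 ± 0.42, FDR 0.0390). Foxd3 and Gdf3 passed in 1 of the 6 fits without 1 library.

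Among markers of other cell types, more genes were called without slow/slow replicate 1 than over the 6 libraries. The same held over all genes tested: 23.3% were called over the 6 libraries, 41.3% with the replicate block and 45.7% without slow/slow replicate 1. The 18 genes of surface ectoderm and epithelium summed to 8730, 3520 and 4020 CPM in WT and to 5560, 1050 and 948 CPM in slow/slow cells, so that replicate 1 was the highest library of each genotype and the genotypes overlapped. Of these genes 2 fell over the 6 libraries, and 13 fell with the replicate block and 15 without slow/slow replicate 1. Krt8 was at 2830, 1120 and 1240 CPM in WT and at 1630, 260 and 225 CPM in slow/slow cells (-1.29 ± 0.83, edgeR FDR 0.295, 0.0170 with the block and 0.00402 without slow/slow replicate 1). Endoderm genes, of which 1 of 21 rose and 1 fell, summed to 8080, 5110 and 5070 CPM in WT and 11000, 4120 and 5100 CPM in slow/slow cells. The mesoderm and mesenchyme list, in which 2 of 20 rose and 3 fell, summed to 1100 to 1470 CPM in WT and to 2540, 1290 and 1180 CPM in slow/slow cells. Astrocyte and oligodendrocyte genes (2 of 17 rose, 1 fell) summed to 522 to 576 CPM in WT and 626 to 846 CPM in slow/slow cells, with the astrocyte filament gene Gfap at or below 0.576 CPM throughout. The neural crest list had 1 gene higher and 1 lower among 10. Without slow/slow replicate 1, 2 endoderm genes were higher and 3 lower, 4 mesoderm and mesenchyme genes higher and 8 lower, 2 astrocyte and oligodendrocyte genes higher and 4 lower, and 2 neural crest genes higher and 4 lower. Without slow/slow replicate 1 the median log2 fold change of the endoderm list went from 0.20 to -0.20 and that of the mesoderm and mesenchyme list from 0.039 to -0.81. That fit keeps WT replicate 1. The 2 medians were 0.15 and -0.70 with replicate 1 of both genotypes left out, and 0.045 and -0.38 with the replicate block. The part of these other cells in the results above was not tested.

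Among general cell states, the interferon-stimulated list fell in 3 of 17 members (11 with the replicate block and 9 without slow/slow replicate 1), the cell cycle list rose in 1 of 27, Ccnd2 (7 with the block and 13 without slow/slow replicate 1), and 2 of 16 dissociation and immediate early genes rose (3 rose and 3 fell without slow/slow replicate 1). Ccnd2, the D-type cyclin of neural progenitors, was at 57.5, 55.8 and 61.0 CPM in WT and at 236, 194 and 224 CPM in slow/slow cells (1.89 ± 0.13, edgeR FDR 0.00253). For the p53 targets, edgeR called 0 of 16 over the 6 libraries, with 2 below an unadjusted p of 0.05 and 1 called by DESeq2, while 4 fell with the replicate block and 7 without slow/slow replicate 1. None of 12 mitochondrially encoded genes was called by edgeR or DESeq2, and 0 were below an unadjusted p of 0.05. In the hypoxia list 1 of 16 fell, Ndrg1 (passing in 4 of the 6 fits without 1 library), while 2 rose and 1 fell without slow/slow replicate 1, and of the caudal and neuromesodermal list 4 of 14 rose and 2 fell. Neuronal subtype factors rose in 7 of 31 members and fell in 1 (2 to 15 and 0 to 2 in the fits without 1 library). For comparison with these lists, 11.3% of all 15660 genes tested were higher and 12% lower over the 6 libraries. With the replicate block 3074 of the 15660 were higher and 3399 lower. Without slow/slow replicate 1, 21.9% of 16088 were higher and 23.8% lower.

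**Figure D3:**
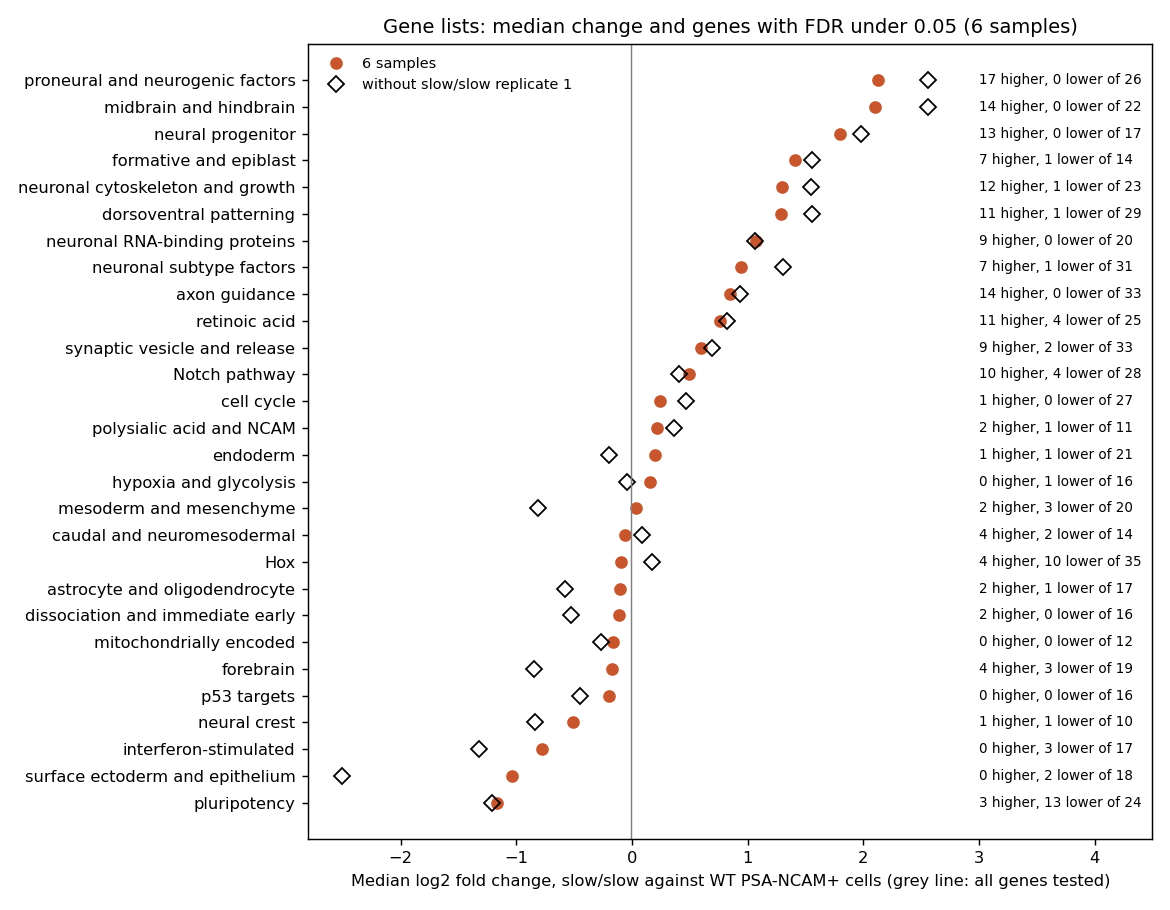
Median log2 fold change of slow/slow against WT PSA-NCAM+ cells in 28 gene lists, over the 6 libraries (filled circles) and without slow/slow replicate 1 (open diamonds), with the genes called by edgeR over the 6 libraries printed at the right. The grey line marks the median of all genes tested (-0.0081). Proneural, midbrain and hindbrain, and neural progenitor genes lie highest (2.13, 2.10 and 1.80), and the pluripotency (-1.17) and epithelial (-1.04) lists lowest.

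Long genes were more often higher. Among genes with a genomic span of 300 kb or more, 20.4% were higher and 7.87% lower in slow/slow cells (median log2 fold change 0.25, n = 470). Among genes under 10 kb, 8.56% were higher and 12.8% lower (median -0.11, n = 3903). The bins from 10 to 30, 30 to 100 and 100 to 300 kb lay between these in order, with 9.74%, 12.6% and 17.3% higher. The order was the same without slow/slow replicate 1 (17.0% to 31.7% higher). This is a description over genes, which are not independent, and many neuronal genes are long.

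Replicates of the PSA-NCAM+ stage differed from each other more than those of the other stages. The deviation of replicate 1 was shared between the genotypes in part. The mean SD of log2 CPM within a genotype was 0.390 at this stage, against 0.128 to 0.154 in ESCs, NPCs and neurons. Of the squared deviations from the genotype means, 68.7% lay along a difference of replicate 1 from replicates 2 and 3 set equal in both genotypes. This direction holds 25% of the degrees of freedom and took 23.2% to 26.6% at the other stages. Slow/slow replicate 1 against its own replicates 2 and 3 accounted for 61.0%, and WT replicate 1 for 28.9%. The 68.7% includes part of any deviation of replicate 1 that only 1 genotype has, so it does not measure sharing alone. Across 15660 genes the replicate 1 deviations of the genotypes correlated with r = 0.56 (a description, since genes are not independent). Of the 15660 genes tested, 1765 deviated at least 2-fold in WT replicate 1 and 3203 in slow/slow replicate 1. Both genotypes deviated at least 2-fold in the same direction in 952 genes, 653 upwards and 299 downwards, and in opposite directions in 70.

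Among the 10 genes with the largest shared deviation upwards in replicate 1, Plagl1, an imprinted zinc finger gene, was at 27.5 CPM in WT replicate 1 against 0.253 and 0.424 CPM in WT replicates 2 and 3, and at 66.3 CPM in slow/slow replicate 1 against 0.235 and 0.109 CPM. Csf1r, the macrophage growth factor receptor, also found in trophoblast and overlapping exons of Hmgxb3, was at 33.8, 3.38 and 5.16 CPM in WT and at 26.5, 0.661 and 0.611 CPM in slow/slow cells. Rsad2, an interferon-induced antiviral gene, was at 41.8, 4.73 and 5.18 CPM and at 7.06, 0.373 and 0.306 CPM. Scel of stratified epithelia, the surface antigen gene Psca, the matrix gene Postn, Nxf3, Atp2c2 and the Y-linked Ddx3y and Uty completed the 10 genes. With the replicate block, 3 of the 10 differed between the genotypes, Rsad2 (-3.38, FDR 0.00430), Atp2c2 (-3.01, FDR 0.0143) and Nxf3 (1.81, FDR 0.0408), and over the 6 libraries without it none did. Without slow/slow replicate 1, Ddx3y, Uty, Atp2c2, Rsad2, Psca, Csf1r and Postn were called lower in slow/slow cells (edgeR FDR 0.00025 to 0.0433). Nxf3 did not pass in that fit and had the opposite sign (-0.55, FDR 0.629). Ddx3y and Uty were high in WT replicates 2 and 3 too, so their place in the group came from the slow/slow libraries.

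Where replicate 1 was low, the shared deviation was largest for Wnt8a, Gbx2, Capn3 and Hoxb1. Wnt8a, a ligand of the posterior epiblast, was at 1.39 CPM in WT replicate 1 against 4.96 and 4.84 CPM, and at 5.02 CPM in slow/slow replicate 1 against 71.5 and 68.2 CPM. Gbx2, which positions the midbrain-hindbrain border, was at 2.17, 10.2 and 15.9 CPM in WT and at 9.31, 54.3 and 106 CPM in slow/slow cells, and it was called with the block (edgeR FDR 0.00195) but not without it (FDR 0.104). Capn3, a calpain of skeletal muscle, was at 1.16, 4.51 and 3.66 CPM in WT and at 0.837, 9.59 and 11 CPM in slow/slow cells. Hoxb1 was at 0.416, 3.29 and 4.07 CPM and at 8.86, 31.3 and 29.3 CPM. Fam171b, Pcyt1b, Spna1, Epha3, Fam131b and Gprin1 were the others. Capn3 and Fam131b share exonic sequence with a neighbour, and Wnt8a and Gprin1 passed in 1 of the 6 fits without 1 library. Over the 6 libraries, Fam171b, Pcyt1b and Fam131b were also called with the block but not without it (FDR 0.00258, 0.00249 and 0.0179, against 0.153, 0.0954 and 0.212). Without slow/slow replicate 1, Gbx2, Fam171b, Pcyt1b, Fam131b, Capn3 and Spna1 passed as well (edgeR FDR 0.00377 to 0.0314).

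Over whole lists, replicate 1 was the lowest library of its genotype in 32 (WT) and 29 (slow/slow) of 35 Hox genes and in 24 and 26 of 27 cell cycle genes. It was the highest library in 16 and 18 of 18 epithelial genes, in 11 and 16 of 17 interferon-stimulated genes and in 14 and 12 of 16 dissociation and immediate early genes. Forebrain genes were highest in replicate 1 in 12 and 15 of 19. Over all genes tested, replicate 1 was the lowest of the 3 libraries in 6748 (WT) and 7378 (slow/slow) of 15660 and the highest in 6735 and 6537. The pluripotency list showed no such order, with medians of 0.035 and 0.028.

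**Figure D4:**
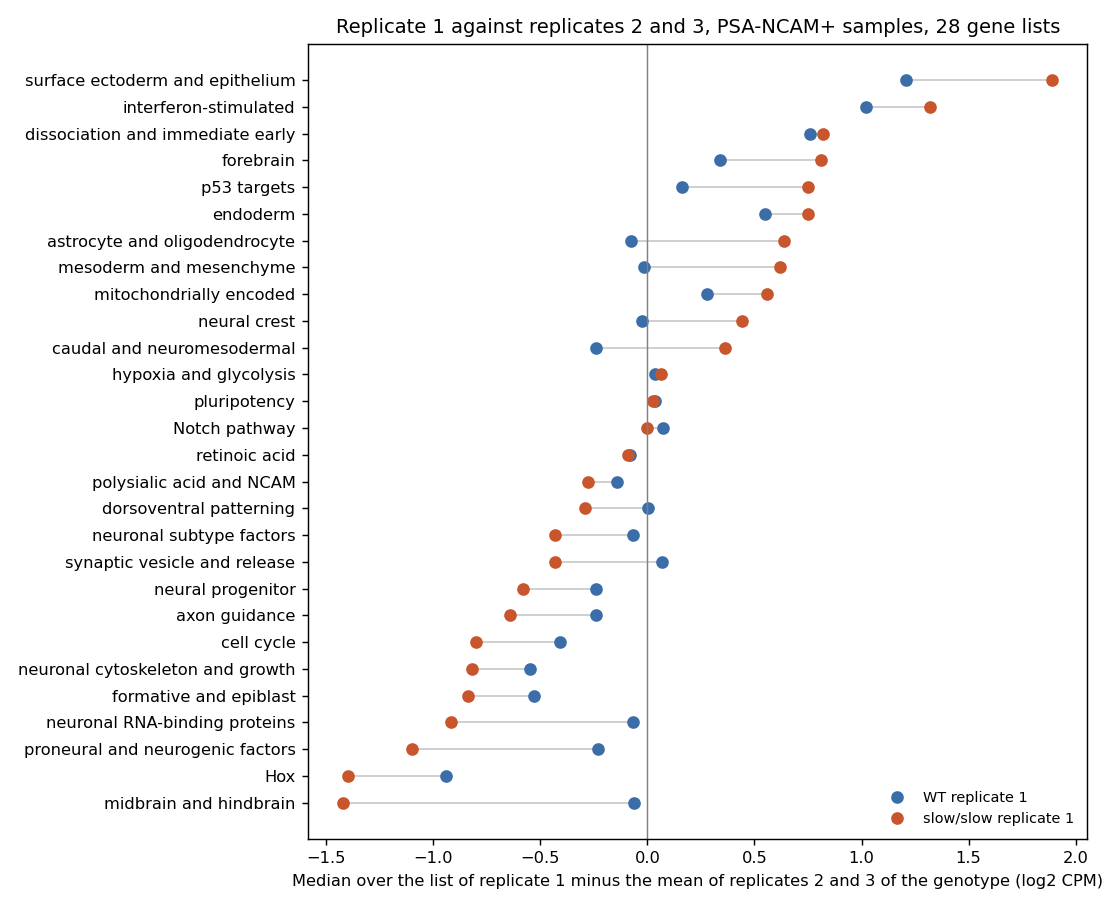
Median over each of 28 gene lists of the log2 CPM in replicate 1 minus the mean of replicates 2 and 3, for WT (blue) and slow/slow (red) PSA-NCAM+ cells. Epithelial genes were higher in replicate 1 of both genotypes (1.21 and 1.89) and Hox genes lower in both (-0.94 and -1.40), while midbrain and hindbrain genes were lower chiefly in slow/slow replicate 1 (-0.064 and -1.42).

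To set these differences against developmental progress, each library was scored on 500 genes that rose most and 500 that fell most from WT NPCs to WT neurons, with the WT NPC mean at 0 and the WT neuron mean at 100. WT PSA-NCAM+ libraries scored 11.7, 13.1 and 13.9 (mean 12.9 ± 1.14 SD, n = 3), and slow/slow libraries 28.6, 40.5 and 42.5 (37.2 ± 7.5, n = 3). The difference of 24.3 points had an exact two-sided permutation p of 0.1, the smallest that 3 against 3 samples allow, and all slow/slow libraries lay above all WT libraries. Within replicate 1 the difference was 16.9 points and within replicates 2 and 3 it was 28. Slow/slow NPCs already scored 20, 24.8 and 25.7 (mean 23.5), above the WT PSA-NCAM+ libraries and again with replicate 1 lowest. From NPCs to PSA-NCAM+ cells the mean thus went from 0 to 12.9 in WT and from 23.5 to 37.2 in slow/slow cells. Slow/slow ESCs scored 8.3, 8.8 and 8.7 and WT ESCs 1.7, 1.5 and 1.6, so the genotypes already differed on this score in ESCs. WT ESCs lay above the WT NPC mean of 0, so the score does not place all stages in order. Among the scored genes that were tested, 171 of 383 rising genes were higher and 7 lower in slow/slow PSA-NCAM+ cells, and 281 of 500 falling genes were lower and 3 higher. On genes chosen from slow/slow NPCs and neurons in the same way, the difference was 9.95 points (WT mean 12.6, slow/slow mean 22.5).

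Replicate 1 was lower on this score by 1.84 points in WT and by 12.9 points in slow/slow cells, and it was the lowest library of both genotypes. With 100 genes in place of 500 in each direction, WT replicate 1 scored 14.5 against 13.0 and 14.7, which is 0.679 points above the mean of the others, so that the direction in WT depended on the number of genes. In slow/slow cells replicate 1 was then lower by 10.7 points. Gene by gene, the match with progress was partial. The replicate 1 deviation correlated with the change from WT NPCs to WT neurons at r = -0.12 in WT and -0.30 in slow/slow cells, and with the change from WT ESCs to WT NPCs at 0.03 and 0.20. With the changes between slow/slow stages it correlated at -0.06 to 0.08. The strongest match was with the genotype difference of NPCs, at -0.27 in WT and -0.53 in slow/slow cells, a contrast between cells of the same day. These are descriptions over 15660 genes, and no PSA-NCAM+ library enters the stage changes or the NPC contrast. On the slow/slow axis, replicate 1 was higher than the mean of the others by 4.31 points in WT and by 0.872 points in slow/slow cells, the opposite direction. A further score was built in the same way from WT ESCs (0) to WT NPCs (100). On it slow/slow replicate 1 was the highest PSA-NCAM+ library, at 115.7 against 108.1 and 108.2 in slow/slow replicates 2 and 3. WT replicates 1 to 3 were at 98.8, 97.5 and 102.3. The within-group deviations of the score from WT NPCs to WT neurons are dominated by slow/slow replicate 1. Progress, the library's own composition and the shared difference of replicate 1 therefore cannot be told apart by that score.

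**Figure D5:**
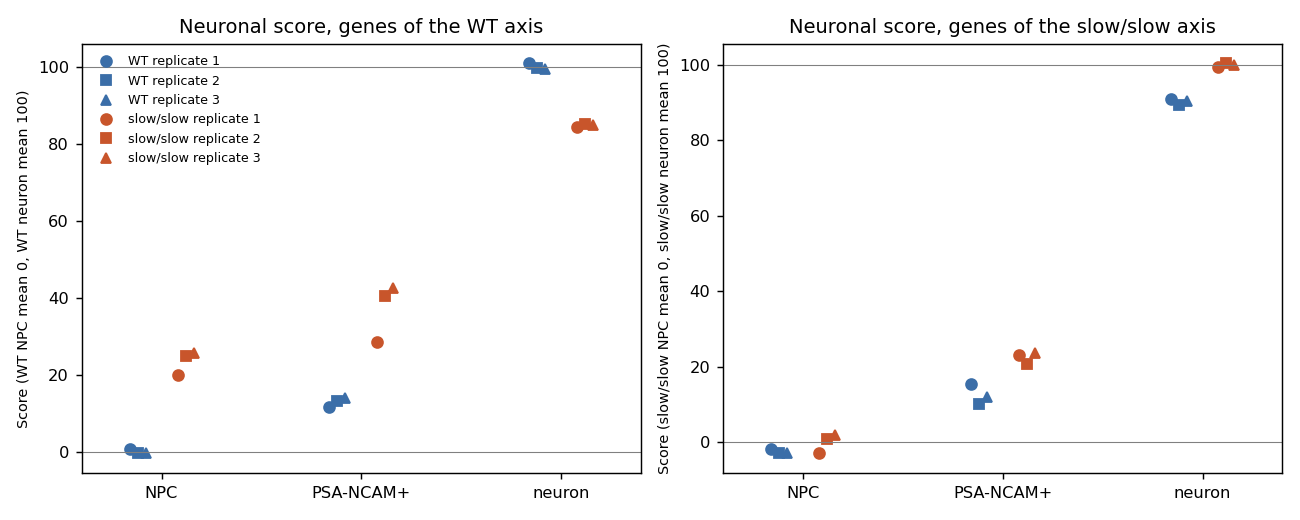
Scores of single libraries at the NPC, PSA-NCAM+ and neuron stages, on genes chosen in WT cells (left) and in slow/slow cells (right), each scaled so that NPCs of that genotype average 0 and neurons 100. On the left the slow/slow PSA-NCAM+ libraries (28.6, 40.5 and 42.5) lie above the WT libraries (11.7, 13.1 and 13.9), with replicate 1 lowest. On the right the genotypes differ by 9.95 points, and replicate 1 is not the lowest library of either genotype.

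The genotype effect of PSA-NCAM+ cells was close to that of NPCs, with exceptions, and unlike that of neurons. Of the 3641 genes called, 3185 (87.5%, or 27.5% of the NPC calls) were also called in the same direction between slow/slow and WT NPCs, and 67 (1.84%) in the opposite direction. With 11600 genes called in NPCs themselves, most genes differed there. Among neurons, where 11763 genes were called, 1470 (40.4%) were called in the same direction and 1178 (32.4%) in the opposite one. The log2 fold changes correlated across 15140 genes at r = 0.80 with those of NPCs and across 14829 genes at -0.05 with those of neurons. Of 1254 genes at least 2-fold higher in slow/slow NPCs, 93.1% were higher in slow/slow PSA-NCAM+ cells, with median differences of 0.99, 1.39 and 1.43 in replicates 1, 2 and 3, and of 2053 genes at least 2-fold lower, 95.6% were lower, with medians of -0.97, -1.56 and -1.64. Replicate 1 thus showed the NPC pattern at a smaller size. Genes that slow/slow neurons changed at least 2-fold kept their sign in 39.9% (1700 higher) and 56.5% (1146 lower).

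A test of the difference itself found 668 of 15917 genes (4.20%) whose genotype effect differed between PSA-NCAM+ cells and NPCs, and 6854 of 16236 (42.2%) for neurons (edgeR interaction, FDR under 0.05). The count against NPCs was 1697 with the replicate block and 2276 without slow/slow replicate 1. Hes5 was among the genes that differed. Its rise was larger in PSA-NCAM+ cells than in NPCs by 2.96 ± 0.48 on the log2 scale (FDR 0.0142), and that of Msi1 by 1.53 ± 0.21 (FDR 0.00826). The endothelial cadherin Cdh5, at 12.6, 4.63 and 5.29 CPM in WT and 0.551, 1.04 and 1.16 CPM in slow/slow cells, differed by -3.51, and the effect on Foxd3 differed by -2.95.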

How the data were processed

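RNA of 24 cultures was sequenced by the authors as poly(A)-selected, stranded, paired-end TruSeq libraries. The deposited raw counts per gene had been made by the authors with vast-tools from reads mapped to mm9, and whether counting used strand is not given in the sources used here. The authors' percent spliced in values per exon, from the same tool, were used only for the library check. The authors' RPKM, fold change and FDR columns and a group-level splicing table were not used. The PSA-NCAM+ libraries held 48373003 to 97131964 counts in genes.

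Raw counts of the 6 PSA-NCAM+ libraries were tested with edgeR 4.0.16 (R 4.3.3; filterByExpr, TMM, quasi-likelihood F test, Benjamini-Hochberg FDR under 0.05 over 15660 genes). SEs were derived from the log2 fold change and the F statistic. CPM used TMM-scaled totals, and scores used log2 CPM with a prior count of 2. Interactions with NPCs or neurons were tested over 12 libraries. Alternatives used DESeq2 1.42.0 and limma 3.58.1. The edgeR test over the 6 libraries, without and with the replicate block, and the interaction with NPCs were tried on simulated counts. These counts held no replicate effect, and the other tests were not tried in this way.

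The labels number the replicates. The methods state independent differentiation experiments for the sequenced ESCs, NPCs and neurons but do not name the PSA-NCAM+ stage, so that p-values there measure the spread between these samples, which may be technical. Deviations from the genotype means correlated at 0.564, 0.500 and 0.438 between samples of the same number, and at 0.438 and 0.263 between WT 2 and slow/slow 3 and between WT 3 and slow/slow 2. Deviations cancel out within a genotype, so a shift shared by replicate 1 alone makes replicates 2 and 3 correlate whatever their numbers. Of the squared deviations, 74.8% lay along the replicate number and 68.7% along replicate 1 against replicates 2 and 3. These values therefore do not show that numbers 2 and 3 pair the samples. In the alternative with a replicate block the numbers were nevertheless treated as pairs.

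Named genes were Polr2a, the 15 per direction with the largest change (FDR under 0.05 without and with the block, genotypes not overlapping, same direction in all 6 fits without 1 library, mean of at least 5 CPM in the higher genotype), the defining or most changed members of each list, and the 10 per direction with the largest shared deviation of replicate 1. Other genes named from the lists were chosen after their values were seen. The samples compared and the gene lists were chosen with earlier results of these data known. Coordinates are from GENCODE on GRCm38 and were matched by gene, while reads had been mapped to mm9. Promoter sequence is from RefSeq. Results for some genes are not reported here.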

Additional observations from a re-analysis of the deposited data

Results flagged for a closer look

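The results here are differences in the genotype effect between stages, each tested as an interaction with edgeR (FDR under 0.05). There were 668 genes for PSA-NCAM+ cells against NPCs and 6854 for PSA-NCAM+ cells against neurons. The 13 genes below differed from NPCs both without and with the replicate block. The effect was more positive in PSA-NCAM+ cells for Hes5 (2.96 on the log2 scale), Wnt3a (2.17), Myl9 (1.67), Msi1 (1.53) and St8sia1 (1.21). It was more negative for Ldoc1 (-4.01), Cdh5 (-3.51), Foxd3 (-2.95), Fbp2 (-2.47), Sp8 (-1.47), Cdx2 (-1.14), Lefty2 (-1.13) and Ccnd2 (-0.90).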

How the results depend on the processing

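The number of genes that differed between slow/slow and WT PSA-NCAM+ cells (3641) depended on how the replicate spread was modelled. It was 6473 with the replicate block, 9424 with all 24 samples in 1 model, 10425 with all 24 samples and a block within each stage, 10199 with limma quality weights, and, in alternatives added after seeing the data, 10077 with those weights without slow/slow replicate 1 and 2952 without chromosomes 8, 15 and Y. Requiring a change of at least 2-fold gave 2319, leaving out replicate 1 of both genotypes 9500, and leaving out 1 library 1013 to 7352. DESeq2 gave 5197, and the other scalings and filters 3104 to 3696. The number that differed from NPCs (668) became 1697 with the block, 3978 with quality weights, 4594 without replicate 1 of both genotypes and 298 to 2276 without 1 library. The number that differed from neurons (6854) became 10639 with quality weights, 10863 without replicate 1 of both genotypes and 5957 to 9645 without 1 library, and 8684 with the block. The score difference of 24.3 points was 9.95 on the slow/slow axis, 21.6 to 28.6 without 1 library, and between 20.3 and 28 under the others, with the same mean in the blocked form. Causes of these differences were not tested.

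Of 101 genes named in the text that passed the test, 101 passed with the replicate block and 101 without slow/slow replicate 1, 62 in every fit without 1 library, and 0 changed sign there. The block changed no call other than those given beside the results. Counts at this depth limit the smallest genes: Six6 was at or below 3 counts per WT library.

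With the neuronal progress score as a covariate, 1385 genes passed. The scores of the genotypes do not overlap, so that this fit extrapolates, and among named genes that passed in at least 1 of the fits with and without the covariate the log2 fold change then had the opposite sign for A930038C07Rik (-0.41), Aldh1a2 (0.62), Atp2c2 (6.24), Capn3 (-6.34), Csf1r (8.31), Dcx (-2.69), Ddx3y (8.93), Dll1 (-0.17), Dll3 (-0.61), Eif2s3y (5.90), Epha3 (-1.51), Fabp7 (-2.49), Gdf3 (-0.49), Gprin1 (-3.24), Hes3 (-0.01), Hoxa13 (0.31), Hoxb1 (-0.62), Hoxb2 (-0.30), Hoxb3 (-0.05), Il2rb (0.01), Krt8 (3.55), Krt80 (2.62), Mest (6.62), Postn (8.08), Psca (7.98), Serpinb9c (0.95), Serpinb9e (0.0), Snap25 (-0.15), Sox3 (-1), Spna1 (-5.30), Tdrd1 (-0.21), Tubb3 (-1.35), Uty (8.33) and Wnt8a (-4.18). Nnat (2.37, and 2.92 without slow/slow replicate 2) had the opposite sign without slow/slow replicate 1 (-2.32), without replicate 1 of both genotypes (-1.99) and with quality weights over 24 (-1.88) and 23 (-2) samples.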

Other observations

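Lists of trophoblast, germline and imprinted genes were drawn up after the values had been seen and are given as description only. In slow/slow PSA-NCAM+ cells 7 of 20 trophoblast genes were called lower and 0 higher by edgeR (15 lower at an unadjusted p under 0.05, 13 by DESeq2), with a median log2 fold change of -2.43, and 17 were lower without slow/slow replicate 1. Esx1, a placental homeobox gene, was at 102, 80.0 and 81.8 CPM in WT and at 8.60, 3.86 and 4.92 CPM in slow/slow cells, and Ascl2, a trophoblast regulator, at 15.2, 10.0 and 11.1 CPM and 1.33, 0.714 and 1.00 CPM. The list summed to 2020, 764 and 913 CPM in WT and to 642, 124 and 127 CPM in slow/slow cells, so that replicate 1 was again the highest library of each genotype.

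Of 23 germline and meiosis genes 14 were lower and 1 higher (6 to 15 lower in the fits without 1 library). Dazl, an RNA-binding protein of germ cells, was at 19.4, 29.2 and 20.5 CPM in WT and at 2.80, 1.98 and 1.56 CPM in slow/slow cells, and the meiotic cohesin subunit Stag3 was at 90.2, 102 and 101 CPM and 29.0, 20.5 and 19.8 CPM. The germ cell helicase Ddx4 was at 10.5, 32.6 and 28.3 CPM in WT and 12.1, 33.6 and 30.3 CPM in slow/slow cells, with replicate 1 low in both genotypes and no difference that passed (log2 fold change 0.059 ± 0.51 SE, edgeR FDR 0.944), and Tdrd1, a germ cell tudor protein, was called higher (1.37) but passed in 1 of the 6 fits without 1 library.

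Among 24 imprinted genes 5 were higher and 6 lower (1 to 6 and 3 to 11 in the fits without 1 library, with the most in both directions without slow/slow replicate 1). Nnat was at 11.1, 5.93 and 6.29 CPM in WT and at 116, 1.6 and 1.51 CPM in slow/slow cells (log2 fold change 2.37 ± 1.59 SE, edgeR FDR 0.314), so that slow/slow replicate 1 alone set the direction.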
